A study of Mus musculus with 6 samples.

Results

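The circadian clock genes described here are 10 genes chosen by name, and all 10 were present among the 16623 genes of a deposited single-cell table of mouse liver. They are the activators Arntl and Npas2, the repressors Per1, Per2, Per3 and Ciart, the nuclear receptors Nr1d1 and Nr1d2, and the output factors Dbp and Tef. Livers came from 3 wild-type (WT) and 3 SIRT7-/- mice, 5 to 6 months old, with 1 droplet library per mouse, and 3000 hepatocytes were mixed with 3000 nonparenchymal cells (NPCs) for each. SIRT7 is a sirtuin deacylase, and the knockout strain was described by its makers as a liver disease model that needs no special diet. The genotype is the only factor by which the labels separate the groups. No treatment is named for either group, and no Cre driver or floxed allele is named for the strain. The mice lived in a light-dark cycle with free access to food, but the hour at which each liver was taken is not given in the sources used here, so differences in the clock genes between mice or genotypes cannot be told apart from differences in that hour. The question was whether the clock genes differed between mice, between cell classes and between the genotypes.

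In mammals the clock runs on a delayed feedback loop. Arntl (BMAL1) pairs with CLOCK or its relative NPAS2 and binds E-boxes to switch on the Per genes, Ciart, Nr1d1, Nr1d2 and Dbp. PER proteins and CIART then restrain this pair, and the REV-ERB receptors encoded by Nr1d1 and Nr1d2 repress Arntl and Npas2, so that the activators and their targets peak at opposite times of day. Dbp and Tef encode PAR bZIP factors that carry the rhythm to D-boxes in genes of hepatic metabolism. Per1 can also be induced directly by glucocorticoid and cAMP signals, and in liver food intake is a strong time cue.

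The promoters are shown because they carry the elements through which these genes are wired to each other. The RefSeq promoter table (GRCm38.p6, 250 bases before to 50 after each start) held 9 of the 10 members in 12 promoters, and Per2 was not among them. Both strands were searched for the E-box CACGTG, the D-boxes TTATGTAA and TTACGTAA, and AGGTCA, the core of ROR and REV-ERB elements. The motifs do not contain each other. The 4 members with an E-box or D-box upstream of the start are printed below for their 250 upstream bases, 5′ to 3′ along the gene, with the matched motifs in capitals.
Per1, chr11:69098699-69098948, plus strand: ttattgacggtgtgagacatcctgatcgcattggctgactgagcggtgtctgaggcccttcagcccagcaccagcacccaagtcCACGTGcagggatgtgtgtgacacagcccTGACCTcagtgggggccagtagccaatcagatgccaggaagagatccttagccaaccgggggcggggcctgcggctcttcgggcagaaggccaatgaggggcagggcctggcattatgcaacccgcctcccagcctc
Ciart, chr3:95882229-95882478, minus strand: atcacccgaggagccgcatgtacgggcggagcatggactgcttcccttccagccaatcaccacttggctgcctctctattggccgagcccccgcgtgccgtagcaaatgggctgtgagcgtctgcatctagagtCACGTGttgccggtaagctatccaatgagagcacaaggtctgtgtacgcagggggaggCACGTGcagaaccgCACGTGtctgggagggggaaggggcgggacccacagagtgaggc
Tef, chr15:81802423-81802672, plus strand: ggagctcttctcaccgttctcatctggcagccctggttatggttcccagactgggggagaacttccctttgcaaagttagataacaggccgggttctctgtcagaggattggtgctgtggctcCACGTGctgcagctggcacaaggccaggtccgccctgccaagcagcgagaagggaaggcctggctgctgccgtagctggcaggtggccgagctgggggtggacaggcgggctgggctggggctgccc
Per3, chr4:151044666-151044915, minus strand: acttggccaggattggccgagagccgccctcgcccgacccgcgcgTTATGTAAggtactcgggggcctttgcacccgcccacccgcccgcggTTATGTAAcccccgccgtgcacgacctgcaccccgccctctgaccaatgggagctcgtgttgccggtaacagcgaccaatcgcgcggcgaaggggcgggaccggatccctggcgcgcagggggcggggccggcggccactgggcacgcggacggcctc
Ciart held 3 E-boxes, with their first bases at -116, -58 and -44 from the start, and Per1 held 1 at -166. Tef has 2 starts in the table, with 1 E-box each, at -127 in the promoter printed and at -138 from the other start. An E-box was present in 3 of the 9 members and in 7.15% of all 32851 promoters in the table. Members are counted here as genes, some with 2 starts, whereas the shares are of single promoters. Per3 held 2 copies of TTATGTAA, at -205 and -158, whereas either D-box was present in 1.06% of all promoters. AGGTCA lay at -137 in Per1, at -77 in Nr1d2 and at 31 after a start of Arntl, and was present in 16.3% of all promoters. The windows of Npas2, Dbp and Nr1d1 had no match, which says only that these letters are absent from those windows. A match is a description of letters and not a measured binding site.

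On the same build, Arntl lies on chromosome 7 from 113178471 to 113314126 and Dbp on chromosome 7 from 45705100 to 45710203. Per1 (69095108 to 69109965) and Nr1d1 (98767932 to 98775377) lie on chromosome 11, together with Sirt7 (120618371 to 120625014). Npas2 (39193702 to 39363240) and Per2 (91415977 to 91459351) lie on chromosome 1. Ciart lies on chromosome 3 from 95878500 to 95882257, Per3 on chromosome 4 from 150997018 to 151044707, Nr1d2 on chromosome 14 from 18204056 to 18239106 and Tef on chromosome 15 from 81802673 to 81826863.

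The deposited values are ln(CP10K + 1), where CP10K is the number of unique molecular identifiers (UMIs, counted molecules) per 10000 in a cell. Between 2511947 and 11069411 UMIs and between 552 and 5609 cells were recovered per mouse, and 13 of 11597 barcodes occurred in more than 1 library. Over all cells Sirt7 lay between 0.512 and 0.718 CP10K in WT mice and between 0.0814 and 0.139 CP10K in SIRT7-/- mice, and every WT mouse was above every SIRT7-/- mouse, as the labels give it. Cells were clustered without the clock genes, and clusters were named from fixed markers with "-like" added. The 2 hepatocyte-like clusters, A with 1771 and B with 1177 cells, the macrophage-like (3712), T/NK-like (2000) and dendritic-like (1513) cells each had at least 20 cells in all 6 mice. The dendritic-like class was the least certain. Its 10 leading genes began with the basophil markers Prss34 and Mcpt8. They also held the monocyte marker F13a1 and 2 dendritic markers, Siglech and Cd209a. At a clustering resolution of 0.7 in place of 0.35, 187 cells of the class remained dendritic-like. Another 1314 fell into a cluster that stayed unnamed, whose marker score was highest for monocytes, with dendritic cells next. All 10 hepatocyte markers were detected in both hepatocyte clusters, and 10 of 10 in A and 9 of 10 in B were higher than in the remaining cells. The clock genes were sparse, and all 6 mice together held 847 UMIs of Arntl, 369 of Nr1d2, 350 of Tef, 290 of Per1, 195 of Per2, 177 of Dbp, 151 of Per3, 134 of Nr1d1, 113 of Npas2 and 41 of Ciart. Each mouse is 1 value here, and the counting intervals below cover counting error only, not the spread between animals.

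Hepatocyte-like cluster B had higher mean levels than cluster A for 9 of the 10 members. Arntl there was 0.661, 1.25 and 1.51 CP10K in WT mice 1 to 3 and 1.76, 1.11 and 1.17 CP10K in SIRT7-/- mice 1 to 3, from 56, 32 and 12 UMIs and 119, 6 and 138 UMIs. WT mouse 1 was the lowest of the 6, SIRT7-/- mouse 1 the highest, and the genotypes overlapped. Npas2, the CLOCK relative, was between 0.149 and 0.434 CP10K with overlap as well, and WT mouse 3, the highest, rested on 2 UMIs. The summed counts of WT mouse 1 gave 0.676 Arntl UMIs per 10000 (exact Poisson 95% interval 0.511 to 0.878), and those of SIRT7-/- mouse 1 gave 1.89 (1.57 to 2.26). These mice are the extremes of the 6.

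The Per genes ranked the mice of cluster B differently. Per1 was 0.862, 0.0475 and 0.101 CP10K in the WT mice and 0.141, 0 and 0.108 CP10K in SIRT7-/- mice, counted from 71, 1 and 1 UMIs and 9, 0 and 12 UMIs. WT mouse 1 stood above the other 5 mice, of which WT mice 2 and 3 and SIRT7-/- mouse 2 held at most 1 Per1 UMI. Per2 was 0.160, 0.148 and 0.0992 CP10K in the WT mice and 0.396, 0.0739 and 0.678 CP10K in SIRT7-/- mice, counted from 15, 5 and 1 UMIs and 25, 1 and 72 UMIs. Here SIRT7-/- mice 3 and 1 were the highest, and SIRT7-/- mouse 2, with 47 cells, was the lowest. Read against each other, Per1 made up 82.6% of the 86 Per1 and Per2 UMIs in WT mouse 1 (exact binomial 95% interval 72.9% to 89.9%). In SIRT7-/- mouse 1 it was 26.5% of 34 UMIs (12.9% to 44.4%), and in SIRT7-/- mouse 3 it was 14.3% of 84 UMIs (7.61% to 23.6%). The other 3 mice held 6 or fewer UMIs of both genes together, which is too few to place them. In macrophage-like cells, by contrast, Per1 was 100% of 9 UMIs in WT mouse 1 (66.4% to 100%) and 72.5% of 80 UMIs in SIRT7-/- mouse 1 (61.4% to 81.9%), with intervals that overlap. Per3 ranged from 0 to 0.169 CP10K in cluster B and Ciart from 0 to 0.118 CP10K, with the highest value of each in a WT mouse.

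**Figure D1:**
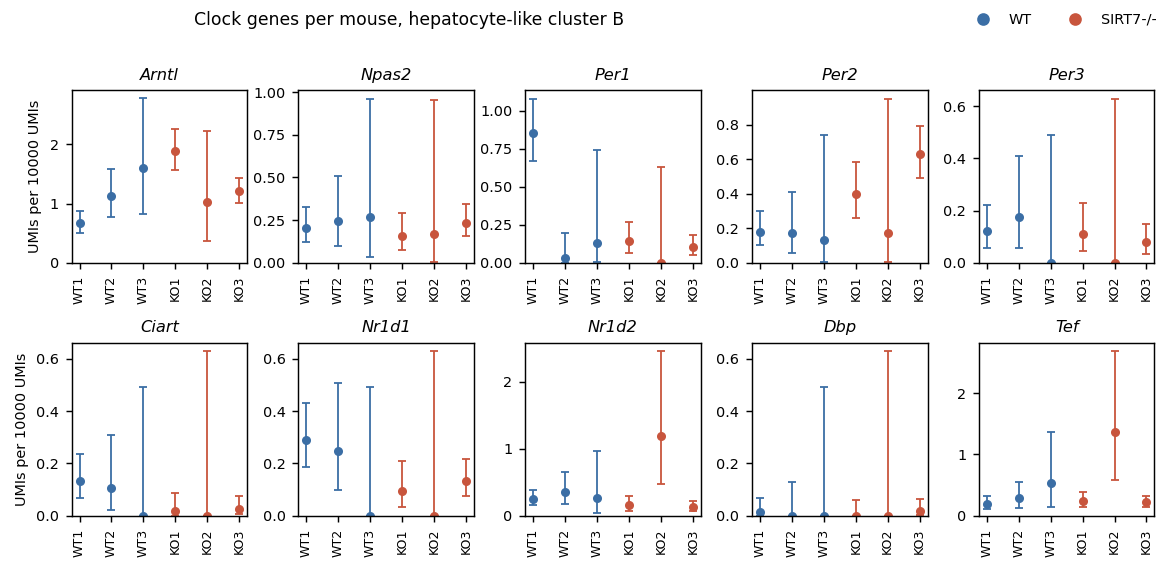
UMIs of each clock gene per 10000 UMIs (y axis, own scale per gene) in hepatocyte-like cluster B, by mouse (x axis, WT1 to WT3 wild type, KO1 to KO3 SIRT7-/- mice 1 to 3), with exact Poisson 95% intervals. Per1 stands out in WT1 with 71 UMIs and Per2 in KO3 with 72 UMIs, while the wide bars of WT3 and KO2 rest on 44 and 47 cells.

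Of the REV-ERB genes, Nr1d1 in cluster B was 0.288, 0.219 and 0 CP10K in the WT mice and 0.117, 0 and 0.136 CP10K in SIRT7-/- mice, counted from 24, 7 and 0 UMIs and 6, 0 and 15 UMIs. The 2 highest values were WT and the 2 mice without a UMI were those with the fewest cells, 1 of each genotype. Nr1d2 was between 0.107 and 0.315 CP10K in 5 mice and 1.40 CP10K in SIRT7-/- mouse 2, where it rested on 7 UMIs. Tef followed the same outline, with 0.219 to 0.483 CP10K in 5 mice and 1.70 CP10K from 8 UMIs in SIRT7-/- mouse 2. That mouse had a median of 993 UMIs per cell in this cluster, the lowest of the 6, and what part this had in the values was not tested. Dbp was nearly absent: 1, 0 and 0 UMIs in the WT mice and 0, 0 and 2 UMIs in the SIRT7-/- mice, 3 among 3018199 UMIs of the cluster. The pooled level was 0.00994 per 10000, and its exact Poisson 95% interval ran from 0.00205 to 0.0291.

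Cluster A, the other hepatocyte-like cluster, had lower levels of most members. Arntl was 0.227, 0.143 and 0.602 CP10K in the WT and 0.127, 0.322 and 0.109 CP10K in the SIRT7-/- mice, and every mouse was higher in cluster B. The mean over 6 mice was 4.88 times higher in B for Arntl, 7.84 times for Npas2, 9.12 times for Per2 and 4.25 times for Tef, with B higher in 6 of 6 mice for each. Per1 and Nr1d2 were higher in B in 5 of 6 mice, and Per3, Nr1d1 and Ciart in 4 of 6. Dbp went the other way, with 8 UMIs in A and 3 in B, and was higher in B in 0 of 6 mice, but WT mouse 3 and SIRT7-/- mouse 1 had 0 UMIs in both clusters. The clusters also differed in measures other than the clock: Malat1, a nuclear RNA, was at 2.35 to 23.9 CP10K in A and 302 to 552 CP10K in B. Neat1, likewise nuclear, was at 0.321 to 3.32 and 35.0 to 119 CP10K, and the median UMIs per cell were 1022 to 1998 in A and 993 to 3823 in B. The summed pericentral markers were 30.9 to 61.7 CP10K in A and 11.8 to 40.6 in B, and the summed periportal markers 11 to 34.2 and 49.2 to 74.4 CP10K. The part of nuclear RNA or of zonation in the clock gene levels was not tested. Malat1 and Neat1 were chosen after their values were seen.

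Across the 5 classes the levels of the members did not follow a single order. Because the 3′ ends of single molecules were counted, values need no correction for gene length. Arntl was 1.24 ± 0.372 CP10K in cluster B (mean ± SD, n = 6 mice), 0.281 ± 0.116 in T/NK-like cells, 0.255 ± 0.188 in cluster A, 0.211 ± 0.0973 in macrophage-like and 0.0812 ± 0.0504 in dendritic-like cells. Cluster B did not overlap with the class below it, whereas the other neighbours in this order overlapped. Npas2 showed the same break, with 0.252 ± 0.0979 CP10K in cluster B and at most 0.0971 CP10K in any mouse of the T/NK-like cells, which came next. For the remaining members every class overlapped with its neighbour. Cluster B had the highest mean for 8 of the 10 members, and T/NK-like cells had it for Dbp and Per3. With UMIs summed per mouse in place of the mean over cells, cluster B was highest for 9 of 10.

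**Figure D2:**
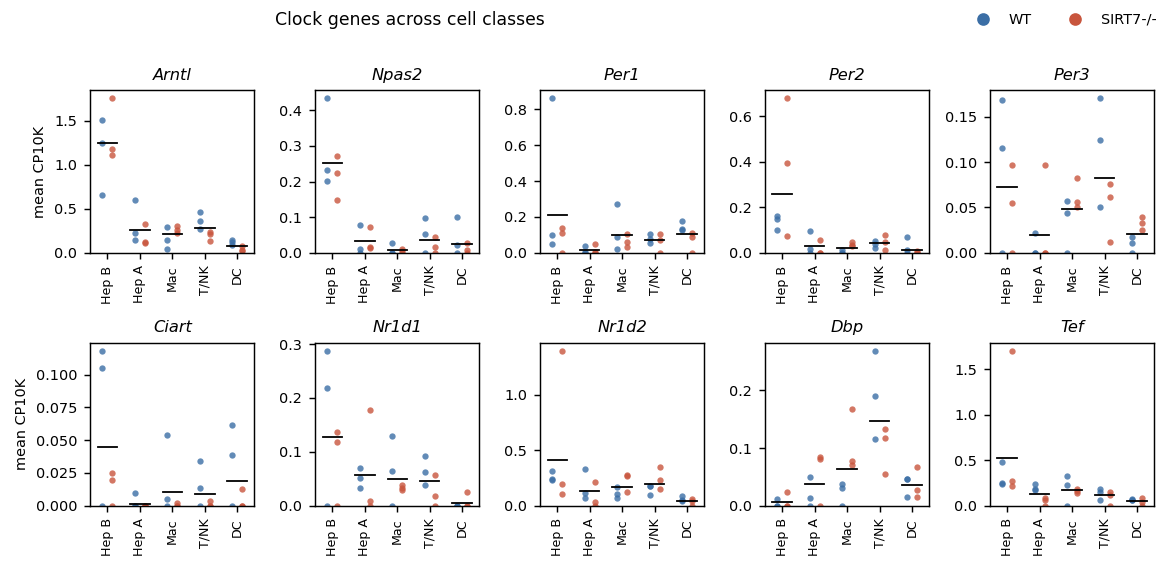
Mean CP10K (y axis, own scale per gene) of each clock gene in hepatocyte-like clusters B and A (Hep B, Hep A), macrophage-like (Mac), T/NK-like and dendritic-like (DC) cells. Points are mice, blue WT and red SIRT7-/-, and black lines are means over 6 mice. Arntl and Npas2 are highest in Hep B without overlap, while Dbp is highest in T/NK-like cells and lowest in Hep B.

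Dbp, the D-box activator, had its lowest mean in cluster B, where Arntl had its highest. In T/NK-like cells it was 0.191, 0.115 and 0.269 CP10K in the WT and 0.0547, 0.118 and 0.133 CP10K in SIRT7-/- mice, counted from 10, 7 and 8 UMIs and 4, 18 and 1 UMIs. Its mean there was 0.147 ± 0.0740 CP10K (SD, n = 6), compared with 0.0638 ± 0.0581 in macrophage-like, 0.0381 ± 0.0392 in cluster A, 0.0362 ± 0.0210 in dendritic-like cells and 0.00584 ± 0.00976 in cluster B. Every mouse was higher in T/NK-like cells than the highest mouse of cluster B, at 0.0233 CP10K. Of the summed Dbp and Arntl UMIs, Dbp made up 0.820% in cluster B (3 of 366, exact binomial 95% interval 0.169% to 2.38%). The share was 14.3% in cluster A (6.38% to 26.2%), 23.4% in macrophage-like (18.8% to 28.5%), 33.3% in T/NK-like (25.7% to 41.7%) and 34.8% in dendritic-like cells (21.4% to 50.3%). In dendritic-like cells the mean levels of both genes were low. By mouse, it was 0% to 1.75% in cluster B and 19.1% to 40.0% in T/NK-like cells, so the 2 did not overlap. Endothelial-like cells (13.2% of 53 UMIs) and plasma-like cells (53.1% of 32 UMIs), which had too few cells in some mice to be compared by genotype, also lay above the interval of cluster B.

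**Figure D3:**
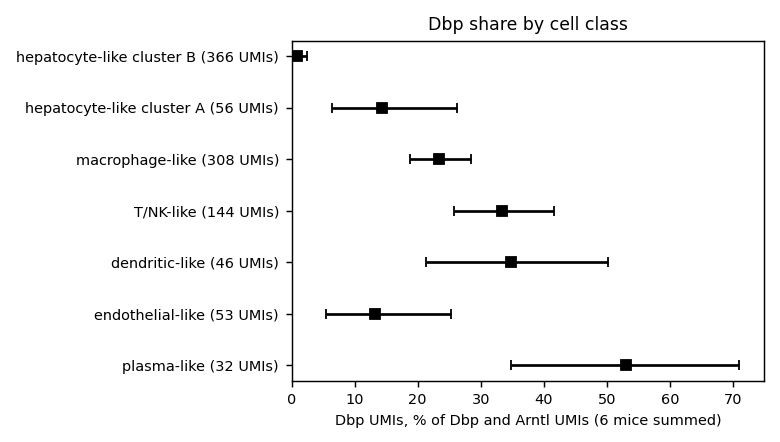
Dbp UMIs as a percentage of the Dbp and Arntl UMIs of the 6 mice together (x axis) by cell class (y axis, with the number of UMIs), with exact binomial 95% intervals. Cluster B lies at 0.820%, below the intervals of every other class shown. By mouse, cluster A and macrophage-like cells overlapped with cluster B.

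RNA released from hepatocytes was present in the other classes, as Alb showed. Alb in macrophage-like cells was 10.1% to 28.1% of its level in hepatocyte-like cells of the same mouse, in T/NK-like cells 13.4% to 48.2%, and in dendritic-like cells 7.62% to 35.8%. Multiplying each hepatocyte-like clock gene level by that ratio gave a rough expectation for such RNA. It assumes that every gene was carried over in proportion to Alb. The hepatocyte-like level merges clusters A and B, whose mix differed between mice. Some measured levels lay far below this product, so it can overstate the hepatocyte RNA of a clock gene. In dendritic-like cells of SIRT7-/- mouse 3, Arntl was 0.0189 CP10K beside a product of 0.3165. Dbp lay above this product in 5, 6 and 6 of 6 mice in the macrophage-like, T/NK-like and dendritic-like cells, and Nr1d2 in 6, 6 and 4. Per1 was above it in 6, 4 and 5 mice. Arntl was above it in 5 macrophage-like and 4 T/NK-like values but in 2 of 6 dendritic-like values. The T/NK-like values that were not above it were those of SIRT7-/- mice 1 and 3. Npas2 in macrophage-like cells was above it in 0 of 6 mice and Per2 in 2 of 6, on small counts of 11 and 34 UMIs. How much of these counts came from hepatocyte RNA was not tested. For Dbp the product was 0 in WT mouse 3 and SIRT7-/- mouse 1, where any UMI lies above it. The hepatocyte-like cells of all mice held 11 Dbp UMIs, so the counts of mice above the product say little for this gene.

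Individual mice kept their rank in some genes and not in others. Per1 was highest in WT mouse 1 in 3 of 5 classes, namely cluster B, the macrophage-like cells at 0.274 CP10K (9 UMIs) and the dendritic-like cells at 0.176 CP10K (5 UMIs). In T/NK-like cells the same mouse had 0.0551 CP10K, and the others lay between 0 and 0.108 CP10K. Ciart was highest in WT mouse 1 in 4 of 5 classes, but with 1 UMI in 3 of them. Per2 was highest in SIRT7-/- mouse 3 in 3 of 5 classes, with 72 UMIs in cluster B and 3 and 1 UMIs in the macrophage-like and T/NK-like cells. Those last 2 levels, 0.0497 and 0.0763 CP10K, lay below the products for hepatocyte RNA, 0.154 and 0.264 CP10K. Per1 of WT mouse 1 lay above its products in macrophage-like and dendritic-like cells, 0.0766 and 0.0752 CP10K. What part hepatocyte RNA had in these ranks was not tested. Arntl had its highest value in 4 different mice over the 5 classes, and WT mouse 1, the lowest in cluster B, came just below the highest in macrophage-like cells, with 0.289 CP10K.

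Between the genotypes, 0 members passed the threshold in any class. Values for each class were compared with limma on log2(mean CP10K + 0.05), SIRT7-/- minus WT, leaving out genes whose mean fell below 0.05 CP10K, and p-values were adjusted over all genes tested by the Benjamini-Hochberg method. In the hepatocyte-like cells together, 7 of the 10 members passed this filter and 0 were called (0.122% of 9850 genes were called). In cluster B it was 0 of 8 (0.273% of 10268 genes), and in cluster A 0 of 4 (0.464% of 8618). In macrophage-like cells it was 0 of 5 (0.201% of 9944), in T/NK-like cells 0 of 6 (0.12% of 10013) and in dendritic-like cells 0 of 3 (0.0308% of 9746). At an unadjusted p under 0.05 there was 1 member in macrophage-like cells and 1 in cluster A, beside 10.6% and 10.4% of all genes, and limma's voom also called 0 members. Leaving out 1 mouse moved the number of genes called from 28 to between 7 and 179 in cluster B and from 20 to between 1 and 96 in macrophage-like cells, but called 0 members in every case. With so few genes called in any class, these fits do not show that the clock genes were alike in the genotypes.

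In cluster B the activator Arntl had a log2 fold change of 0.28 (SE 0.41, adjusted p = 0.838) and Npas2 one of -0.32 (SE 0.60). The Per genes pointed in different directions, with Per1 at -1.05 (SE 0.85, adjusted p = 0.701), Per2 at 0.90 (SE 0.70, adjusted p = 0.687) and Per3 at -0.41 (SE 0.79). Without WT mouse 1 the Per1 value was -0.08 (adjusted p = 0.993), and without SIRT7-/- mouse 2 it was -0.45. Nr1d1 was at -0.51 (SE 0.83), Nr1d2 at 0.31 (SE 0.68) and Tef at 0.59 (SE 0.62). The median over all genes of the cluster was 0.19, and 4 of the 8 members lay above 0 and 4 below, with a median of -0.02.

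In the hepatocyte-like cells together the largest value was that of Per2, at 0.78 (SE 0.65, adjusted p = 0.88), and the 7 members had a median of -0.06 beside 0.15 over all genes. Cluster B made up 320 of 800, 102 of 514 and 44 of 99 of these cells in WT mice 1 to 3. In SIRT7-/- mice 1 to 3 it was 393 of 918, 47 of 281 and 271 of 336. Arntl was at 0.40 in the merged cells, beyond its values in cluster A (-0.58) and cluster B (0.28). The part of the mix in the merged values was not tested. In cluster A all 4 members tested were below 0, led by Tef at -1.44 (SE 0.62, unadjusted p = 0.0314, adjusted p = 0.414). The SIRT7-/- mean of Tef, 0.0490 CP10K, lay below the filter on low values, which Tef passed through the WT mice (mean 0.198 CP10K). The shared direction thus draws on a member admitted by the group where it was high, and is not read as a result on the members. Tef was 0.182, 0.176 and 0.237 CP10K in the WT and 0.0825, 0.0645 and 0 CP10K in SIRT7-/- mice, counted from 13, 12 and 1 UMIs and 5, 3 and 0 UMIs. The genotypes did not overlap for Tef, as was the case for 16.8% of all genes in this cluster, and Alb and Malat1 differed widely between its mice.

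In macrophage-like cells Dbp was 0, 0.0299 and 0.0373 CP10K in the WT and 0.0708, 0.0776 and 0.167 CP10K in SIRT7-/- mice, counted from 0, 1 and 3 UMIs and 44, 17 and 7 UMIs. Every SIRT7-/- mouse was higher than every WT mouse, as for 17.1% of all genes in that class in either direction. The log2 fold change was 1.09 (SE 0.50, unadjusted p = 0.0492, adjusted p = 0.469), and the WT values rest on 46 to 243 cells against 84 to 2651. Without SIRT7-/- mouse 3 Dbp fell below the filter on low values and could not be fitted. Arntl was at 0.73 (SE 0.46), Nr1d2 at 0.74 (SE 0.44), Tef at 0.30 (SE 0.64) and Per1 at -0.41 (SE 0.57). The median of the 5 members tested was 0.73, beside -0.03 for all genes. The WT mean of Dbp, 0.0224 CP10K, lay below the filter, which Dbp passed through the SIRT7-/- mice (mean 0.105 CP10K). Since Dbp was thus admitted by the group where it was high, this median is not read as a shift of the members.

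In T/NK-like cells 5 of 6 members lay below 0 and the median was -0.62 beside -0.06 over all genes. Of these members, Per3 had a SIRT7-/- mean below the filter (0.04999 CP10K) and passed it through the WT mice (0.115 CP10K). Arntl was 0.365, 0.276 and 0.462 CP10K in the WT and 0.212, 0.237 and 0.135 CP10K in SIRT7-/- mice, counted from 21, 13 and 16 UMIs and 17, 27 and 2 UMIs. The genotypes did not overlap, as for 11.6% of genes in the class, and the log2 fold change was -0.77 (SE 0.38, adjusted p = 0.739). Dbp was at -0.66 (SE 0.46), Per3 at -0.71 (SE 0.52), Tef at -0.57 (SE 0.58), Per1 at -0.37 (SE 0.54) and Nr1d2 at 0.52 (SE 0.43). In dendritic-like cells Arntl and Per1 did not overlap (10.9% of genes did not), at -0.93 (SE 0.47, adjusted p = 0.836) and -0.93 (SE 0.51, adjusted p = 0.858). Arntl there was 0.0940, 0.147 and 0.120 CP10K in the WT and 0.0786, 0.0285 and 0.0189 CP10K in the SIRT7-/- mice, on 1 to 11 UMIs each. The SIRT7-/- means of Arntl and Tef in this class, 0.042 and 0.0412 CP10K, lay below the filter, which both genes passed through the WT mice.

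**Figure D4:**
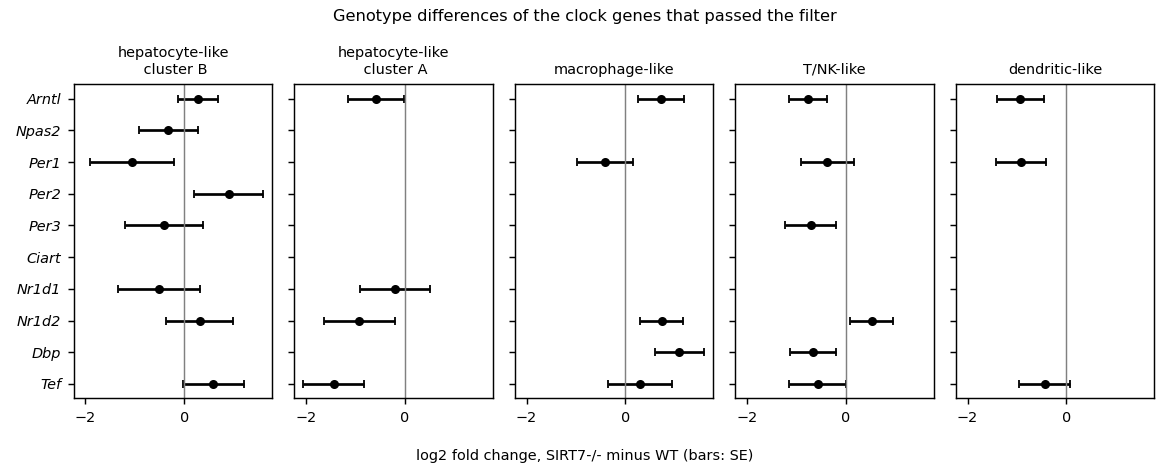
Log2 fold change, SIRT7-/- minus WT (x axis), of each clock gene that passed the filter on low values (y axis), by class, with standard errors as bars. None of the values shown passed the threshold, and Arntl lies above 0 in cluster B and macrophage-like cells and below 0 in the other 3 classes.

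The difference between the genotype differences was tested within each mouse for hepatocyte-like minus macrophage-like cells, which 4 members could enter. The hepatocyte-like values merge clusters A and B, so their mix enters these values as well. Nr1d2 had -0.84 (SE 0.58, adjusted p = 0.796), Tef -0.39 (SE 0.64), Arntl -0.33 (SE 0.62) and Per1 0.0031 (SE 0.57). With 0 of 8579 genes called (0% called, 616 at an unadjusted p under 0.05), a difference between these classes was not detectable for any gene.

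The remaining loop components were taken from a list of 15 other clock genes. In cluster B 13 were tested and 0 passed, 8 of them above 0 and 5 below, with a median of 0.32 beside 0.19 over all genes. Bhlhe40 (DEC1, an E-box repressor) was 3.06 ± 0.190 CP10K in the WT and 3.09 ± 1.08 in the SIRT7-/- mice (SD, n = 3), and Clock, the partner of Arntl, was 2.52 ± 1.78 and 2.09 ± 0.276. In cluster A 13 were tested, 10 of them below 0, and Rora, which opposes the REV-ERB receptors, was 0.930 ± 0.462 and 0.511 ± 0.273 CP10K. In macrophage-like cells 9 of 12 and in T/NK-like cells 8 of 13 were below 0, and 0 were called in either. The highest mean level of the list in macrophage-like cells was that of Csnk1d, the kinase that marks PER for decay, at 1.06 ± 0.245 and 0.683 ± 0.175 CP10K, and in T/NK-like cells that of Rora, at 1.56 ± 0.585 and 1.0 ± 0.0244 CP10K. In dendritic-like cells 11 were tested and 0 called.

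Of 15 clock-driven outputs of liver, 13 were tested in cluster B and 0 passed, with a median of -0.11. Cyp7a1, the rate-limiting enzyme of bile acid synthesis, was 0.922, 15.7 and 15.3 CP10K in the WT and 5.63, 4.71 and 13.4 CP10K in the SIRT7-/- mice. WT mouse 1, the mouse with the most Per1, was thus far below the other 5. Alas1, which starts heme synthesis, was 4.83 ± 2.96 and 3.03 ± 0.0968 CP10K. Lpin1, a phosphatidate phosphatase that was named after its values were seen, was 7.99 CP10K in WT mouse 1 and 1.36 to 2.60 CP10K in the others. In the other classes 11 outputs were tested in each and 0 passed.

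Immediate-early genes differed between the genotypes in cluster B. Of 17 listed genes 13 were tested there, 5 fell and 0 rose, with a median of -1.57 beside 0.19 over all genes. Fos was 3.41, 1.65 and 1.21 CP10K in the WT and 0.336, 0 and 0.00626 CP10K in the SIRT7-/- mice, a log2 fold change of -4.24 (SE 0.70, adjusted p = 0.0189). Junb fell by 3.54 (adjusted p = 0.000703), Egr1 by 3.20 (adjusted p = 0.0254) and Ier2 by 2.92 on the log2 scale (adjusted p = 0.000707). Btg2, the remaining one and named beyond the limit of 4 genes a class, fell by 2.54 (adjusted p = 0.0259). These genes encode transcription factors and growth regulators that answer within minutes to signals and to cell handling. The genotypes overlapped for none of the 5, which a call by itself makes likely, and 17.1% of all genes of the cluster had no overlap. WT mouse 1 was highest for all of the 5 but Egr1. Beside them, Neat1 was 35.0 to 57.9 CP10K in the WT and 69.6 to 119 CP10K in the SIRT7-/- mice of this cluster, also without overlap, and the median mitochondrial share was 0.912% to 3.25% and 1.16% to 3.39%; the part of either was not tested. In the hepatocyte-like cells together 0 of 12 passed (6 at an unadjusted p under 0.05), and in cluster A 0 of 12, with levels of 0.0293 to 0.201 CP10K for Fos. Macrophage-like (0 of 17), T/NK-like (0 of 14) and dendritic-like cells (0 of 17) had no call, with 8, 1 and 3 genes at an unadjusted p under 0.05. For hepatocyte-like minus macrophage-like cells the difference of Fos was -1.54 (adjusted p = 0.603). In cluster B the call on Fos was lost without WT mouse 1, WT mouse 3 or SIRT7-/- mouse 2 (adjusted p 0.0666, 0.117 and 0.175), as were those on Egr1 (0.14, 0.198 and 0.0628) and Btg2 (0.111, 0.197 and 0.176), and the call on Junb was lost without WT mouse 3 (0.0699).

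**Figure D5:**
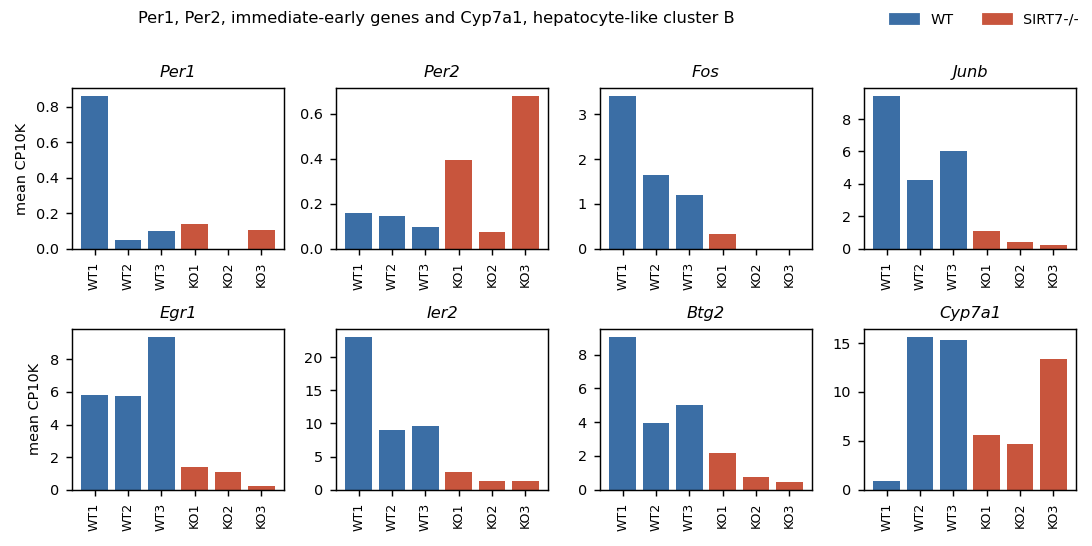
Mean CP10K (y axis, own scale per gene) of Per1, Per2, 5 immediate-early genes and Cyp7a1 in hepatocyte-like cluster B, by mouse (x axis, blue WT, red SIRT7-/-). WT1 holds the highest Per1, Fos, Junb, Ier2 and Btg2 and the lowest Cyp7a1, and all 3 SIRT7-/- mice lie below all WT mice for the 5 immediate-early genes.

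Of the 17 glucocorticoid, cAMP and fasting genes, all 17 were tested in cluster B and 0 passed, with 12 below 0. Pck1 and G6pc, the enzymes of gluconeogenesis, were 59.3 ± 10.8 and 30.3 ± 8.78 CP10K in the WT and 45.6 ± 2.68 and 45.7 ± 14.3 CP10K in the SIRT7-/- mice. Tsc22d3 (GILZ), a direct glucocorticoid target named after its values were seen, was 10.5, 4.05 and 4.46 CP10K in the WT and 2.39, 2.02 and 2.57 CP10K in the SIRT7-/- mice. Mt1, a metallothionein named likewise, was 89.4, 13.9 and 4.52 CP10K against 0.822, 2.66 and 1.22 CP10K. For both, WT mouse 1 was the highest, as it was for Per1. The genotypes did not overlap for either, as for 17.1% of genes in the cluster, and neither passed the threshold. Sgk1 of the same list, also named after its values were seen, went the other way. Its log2 fold change was 2.06 (SE 0.49, adjusted p = 0.104), with the lowest adjusted p of the list. In cluster A, macrophage-like, T/NK-like and dendritic-like cells 0 of 16, 14, 16 and 14 passed.

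Of the feeding genes, 12 were tested in cluster B and 0 passed, 8 were at an unadjusted p under 0.05 and 10 lay above 0, with a median of 1.07 beside 0.19 over all genes. Scd1, the stearoyl-CoA desaturase of fat synthesis, was 9.31, 4.32 and 3.08 CP10K in the WT and 11.9, 14.8 and 62.4 CP10K in the SIRT7-/- mice there, so that SIRT7-/- mouse 3 stood far above the others. Thrsp was 11.7 ± 10.0 and 5.35 ± 2.18. In macrophage-like, T/NK-like and dendritic-like cells 0 of 11 or 12 passed.

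The genes whose levels varied most like those of Dbp over the 24 mouse-and-class values, each with its class mean removed, were Nedd4 (Pearson r = 0.665), Abhd17a (0.597), Rnf7 (0.568), Nrd1 (0.535) and Bst2 (0.519). For Arntl they were Gm4951 (0.776), Tnrc6b (0.752), Ssh2 (0.747), Irf3 (0.732) and Crlf3 (0.713). They were drawn from the 3224 genes that passed the filter in each class used and had a mean of at least 0.5 CP10K over these classes. No member reached that mean, so none could be listed. The values of a mouse share its library and depth.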

How the data were processed

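Droplet libraries of 3′ transcript ends were made from livers of 3 WT and 3 SIRT7-/- mice. Per the labels, the authors aligned reads to mm10 (GRCm38) with Cell Ranger 6.0.0, left out cells with few genes or many mitochondrial reads and genes in fewer than 3 cells, and scaled each cell to 10000. The authors deposited the natural log of CP10K plus 1. Dividing exp(value) - 1 by the smallest step of a cell gave whole UMIs within 0.02 for all 12961041 values above 0. Barcode endings assigned all cells to mice, with 0 left over.

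Cells were clustered with scanpy 1.11.5 and leidenalg 0.10.2 (1000 variable genes, 50 components, 3 neighbours from each mouse, resolution 0.35) without the 25 clock genes. Clusters were named from fixed markers, with 3 or more in at least 2% of cells. Scrublet marked 46 cells (0.396%), too few for a working call, so doublets were kept. Mouse means of CP10K plus 0.05 were taken as log2 and compared with limma 3.58.1 (R 4.3.3, lmFit, eBayes with trend and robust), two-sided, for genes at 0.05 CP10K or more, adjusting p by Benjamini-Hochberg across every gene tested in the class (threshold 0.05). The fits were tested on simulated data. The deviations of same-numbered mice had r of 0.116, 0.218 and 0.130 (numbers 1 to 3) in the hepatocyte-like cells together. Within cluster B they had r of -0.088, -0.0230 and -0.154, and within cluster A 0.126, -0.199 and -0.290. In the other classes r was positive in some pairs and not in others. A block on the number, which the study did not use, was an alternative. Libraries of a group are separate mice. Protein sequences were not used here.

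Members and lists were chosen with earlier results of these data known. The genes named were all members in every class, of each list those past the threshold (at most 4 a class) or else the 2 with the highest level, and the 5 genes most like Dbp and Arntl. Btg2 was named in addition. The comparisons of clusters A and B alone were added after seeing the data. A result on 1 further listed gene is not reported here.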

Additional observations from a re-analysis of the deposited data

How the results depend on the processing

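The members called between the genotypes stayed at 0 in every class under every alternative, and the lowest adjusted p of a member was 0.171. Of 37 fold changes of members, 18 kept their sign throughout and 19 turned at least once, 26 of 46 times when 1 mouse was left out. The counts rest on few molecules, which limits all member values; the cause of each change was not tested. In hepatocyte-like cells the turned log2 values were -0.58 for Arntl, -0.19 for Nr1d1 (cluster A alone), -0.51 for Nr1d1, 0.31 for Nr1d2 and 0.59 for Tef (cluster B alone), 0.0103 for Npas2 (mean of ln values), -0.0248 and -0.93 for Nr1d1 (summed UMIs and voom) and 0.0016 for Nr1d2 (pseudocount 0.5). In cluster A Nr1d1 became 0.0145 (pseudocount 0.5) and 0.0026 (ln values), and in cluster B voom gave -1.09 for Nr1d2 and -0.22 for Tef. For hepatocyte-like minus macrophage-like cells Arntl became 0.0043, 0.0951 and 0.0684 (pseudocount 0.5, summed UMIs, ln values) and Per1 -0.0664 and -0.0213 (pseudocounts 0.01 and 0.5). Tef in macrophage-like cells became -0.0132 (pseudocount 0.5) and Per1 in T/NK-like cells 0.0107 (voom).

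Without 1 mouse, values ranged in cluster B from -0.0543 to 0.51 for Arntl, -1.38 to 0.0918 for Nr1d1, -0.64 to 0.96 for Nr1d2, -1.06 to 0.0222 for Per3 and -0.27 to 1.08 for Tef, and in cluster A from -0.33 to 0.21 for Nr1d1. In hepatocyte-like cells they ranged from -0.39 to 0.21 for Npas2, -0.15 to 0.47 for Nr1d1, -0.66 to 0.22 for Nr1d2, -0.97 to 0.0336 for Per1 and -0.35 to 0.16 for Tef. Macrophage-like cells had -0.92 to 0.16 for Per1 and -0.60 to 0.85 for Tef, and T/NK-like cells -0.71 to 0.12 for Per1 and -0.95 to 0.0502 for Tef. For the difference of both classes Arntl had -0.95 to 0.0609, Per1 -0.42 to 0.42 and Tef -1.03 to 0.38.

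The number of genes called moved more. From 12 in hepatocyte-like cells it went to 40 (cluster A alone), 28 (cluster B alone), 0 (ln values), 3 (no filter), 6 (pseudocount 0.5) and 3 (summed UMIs), and to 3 to 34 without 1 mouse. From 40 in cluster A it went to 25 (genes under 0.2 CP10K left out), 11 (ln values), 107 (summed UMIs), 269 (voom) and 19 to 138 without 1 mouse. From 28 in cluster B it went to 8 (0.2 CP10K), 13 (no filter), 7 and 46 (pseudocounts 0.01 and 0.5), 14 (summed UMIs) and 7 to 179 without 1 mouse. Macrophage-like cells went from 20 to 55 (ln values), 1 (no filter), 7 (pseudocount 0.01) and 1 to 96, T/NK-like cells from 12 to 7 (0.2 CP10K), 43 (ln values), 6 (pseudocount 0.01) and 7 to 138, and dendritic-like cells from 3 to 31 (ln values), 1 and 5 (pseudocounts 0.01 and 0.5) and 0 to 141. The difference of classes stayed at 0 or 1. With the replicate number as a block the counts were 17 in hepatocyte-like, 2 in cluster A, 71 in cluster B, 138 in macrophage-like, 3 in T/NK-like and 54 in dendritic-like cells, and the block changed no call on a member.

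In cluster B, Fos, Egr1 and Btg2 also lost their calls with a pseudocount of 0.01, with genes under 0.2 CP10K left out and with voom. In hepatocyte-like cells the median over all genes was 0.15, against 0.0068 with voom. Leaving out doublets was not run, and dendritic-like cells at a resolution of 0.7 had too few cells in the WT mice and SIRT7-/- mouse 3 to give a value. Of 50 mean levels, 0 moved by more than 1 SD when UMIs were summed.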
